A study of Mus musculus with 12 samples.

Results

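The glutathione transferases, glutathione peroxidases, peroxiredoxins, thioredoxin reductases, superoxide dismutases, glutamate-cysteine ligase and catalase were compared between mini-muscle and regular-muscle mice. Members were taken by gene symbol alone: a symbol starting with Gsta, Gstk, Gstm, Gsto, Gstp, Gstt, Gstz, Mgst, Prdx or Txnrd, or with Gpx and a digit, or one of Sod1, Sod2, Sod3, Gclc, Gclm and Cat. This gave 43 of the 18194 genes that had a probe set assigned to them alone, and the brightest probe set of each gene, by its mean log2 over the 12 arrays, stands for it. The rule uses symbols and not measured differences, but it was set with earlier results of these data known. Of the 43, 31 lay above the dim limit (a mean log2 intensity of 8.56, the median of the gene means) and were tested, and 12 lay below it and are given by their levels.

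The tissue was gastrocnemius, the main calf muscle, with lateral and medial portions, from male mice of generation 37 of a selection experiment, on average 84 days old (79 to 86 days). All 12 animals came from lines bred for high voluntary wheel running (HR), and the unselected control lines of that experiment were not among the arrays. The mini-muscle group was 6 mice of HR line 3 (HRmini), for each of which the muscles of both limbs were pooled. The regular-muscle group was 6 mice of HR line 8 (HRnormal), each sampled from either the left or the right limb. Mini-muscle mice carry an inherited form of small hindlimb muscle. Each array held RNA of a different animal, from 5 µg of total RNA, and the labels name no drug or engineered allele for either group. Since phenotype, line and limb pooling divide the arrays identically, they cannot be told apart in any difference given here.

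These enzymes handle reactive oxygen species and reactive electrophiles. Superoxide dismutases turn superoxide into hydrogen peroxide, which catalase, the glutathione peroxidases and the peroxiredoxins remove. Glutathione transferases join glutathione to electrophiles, glutamate-cysteine ligase makes the rate-limiting step of glutathione synthesis, and thioredoxin reductases use NADPH to keep thioredoxin reduced, which in turn recycles peroxiredoxins. In muscle, mitochondria, NADPH oxidases and xanthine oxidase are among the sources of these oxidants, and the transcription factor Nrf2 (gene Nfe2l2) drives many of the genes through an antioxidant response element.

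The promoters of members that carry the contrast are shown, since neighbours and family members moved in opposite directions: Gstm1, Gstm5, Gstp1 and Prdx3 were lower and Gstm7, Txnrd1 and Cat higher in mini-muscle. Each stretch is the 250 bases before a RefSeq start site (assembly GRCm38.p6), written 5′ to 3′ on the gene's own strand. Capitals mark matches to TGANNNNGC, a loose form of the core of the antioxidant response element, on either strand.
Gstm1 promoter, chr3:108017974-108018223, minus strand: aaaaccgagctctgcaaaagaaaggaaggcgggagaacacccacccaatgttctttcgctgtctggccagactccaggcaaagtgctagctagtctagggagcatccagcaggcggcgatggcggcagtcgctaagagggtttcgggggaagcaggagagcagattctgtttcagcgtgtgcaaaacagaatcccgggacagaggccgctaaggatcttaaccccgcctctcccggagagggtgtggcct
Gstm5 promoter, chr3:107895604-107895853, plus strand: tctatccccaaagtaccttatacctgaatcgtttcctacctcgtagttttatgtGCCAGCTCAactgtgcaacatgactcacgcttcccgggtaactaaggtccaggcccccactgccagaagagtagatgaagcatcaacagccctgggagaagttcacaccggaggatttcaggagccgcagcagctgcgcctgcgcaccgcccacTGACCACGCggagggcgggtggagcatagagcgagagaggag
Gstp1 promoter, chr19:4037913-4038162, minus strand: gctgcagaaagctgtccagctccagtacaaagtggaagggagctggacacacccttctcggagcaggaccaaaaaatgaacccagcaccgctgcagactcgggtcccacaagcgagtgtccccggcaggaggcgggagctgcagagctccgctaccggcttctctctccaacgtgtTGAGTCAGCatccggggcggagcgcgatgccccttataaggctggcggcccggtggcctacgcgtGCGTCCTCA
Prdx3 promoter, chr19:60874539-60874788, minus strand: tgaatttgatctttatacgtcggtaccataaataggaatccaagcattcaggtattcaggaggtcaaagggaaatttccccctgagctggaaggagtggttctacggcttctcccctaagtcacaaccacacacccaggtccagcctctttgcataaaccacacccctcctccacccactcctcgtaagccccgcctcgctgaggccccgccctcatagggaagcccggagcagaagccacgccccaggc
Gstm7 promoter, chr3:107931818-107932067, minus strand: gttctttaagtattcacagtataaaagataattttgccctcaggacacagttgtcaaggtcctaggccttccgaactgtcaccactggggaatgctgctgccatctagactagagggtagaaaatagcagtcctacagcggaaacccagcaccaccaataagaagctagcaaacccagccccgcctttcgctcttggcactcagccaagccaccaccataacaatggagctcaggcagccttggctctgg
Txnrd1 promoter, chr10:82858956-82859205, plus strand: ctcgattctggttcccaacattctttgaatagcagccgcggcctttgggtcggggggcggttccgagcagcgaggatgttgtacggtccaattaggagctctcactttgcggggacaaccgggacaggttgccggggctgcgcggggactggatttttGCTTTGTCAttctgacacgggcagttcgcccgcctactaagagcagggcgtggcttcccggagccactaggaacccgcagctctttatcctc
Cat promoter, chr2:103485154-103485403, minus strand: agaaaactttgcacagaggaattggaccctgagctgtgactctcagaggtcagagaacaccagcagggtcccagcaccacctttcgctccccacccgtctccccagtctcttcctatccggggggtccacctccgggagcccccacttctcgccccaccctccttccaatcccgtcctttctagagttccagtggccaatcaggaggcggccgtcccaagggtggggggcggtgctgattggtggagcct

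The loose form TGANNNNGC was searched on both strands from 250 bases before to 50 bases after each start site, and 41.3% of 32851 promoters of that length held it. Counted by gene, it was found in 18 of the 39 members that the table holds (46.2%) and in 45.0% of 27025 genes. The narrower form TGACNNNGC, whose matches are a subset of those of TGANNNNGC, was found in 17.9% of these members and in 14.0% of genes. Among the members that changed, 2 of 4 higher genes (Gstm7 and Txnrd1) and 2 of 5 lower genes in the table (Gstm5 and Gstp1) held TGANNNNGC. The narrower form was held by the same 2 higher genes and by 1 of the 5 lower genes, Gstm5. With positions counted from the start site, Gstm5 held TGACCACGC at -42. Gstp1 held TGAGTCAGC at -74. The match of Gstm7, TGACAAAGC, lay at -129 from another, downstream start site and not in the stretch printed for its upstream one. Txnrd1 has 3 start sites in the table, and the stretch printed is for the middle of them; the 250 bases before the most upstream site held 0 matches and those before the most downstream site 1. These shares are a description, and a match is not evidence of binding.

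Members differed between the groups in both directions, with 10 of the 31 tested members (32.3%) past an adjusted p of 0.05 in limma, against 26.7% of all 9097 genes tested. Of the 10, 4 were higher (Cat, Gstm7, Txnrd1 and Gpx3; 14.9% of all genes were higher) and 6 were lower (Gstm1, Gstm5, Gstp1, Gsto1, Gsta4 and Prdx3; 11.8% of all genes were lower). Differences are on the log2 scale and positive where mini-muscle was higher. Their median was 0.01 over the 31 members and 0.03 over all genes. The median size of a difference was 0.24 for the members and 0.22 for all genes. The share of members called was thus near that of all genes, and 6 of the 10 changes reached 1.5-fold. Members with a mean above log2 12 passed in 7 of 15 cases, against 45.8% of all 1733 genes at that level, and the other tested members in 3 of 16; this split was chosen after the values were seen.

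**Figure D1:**
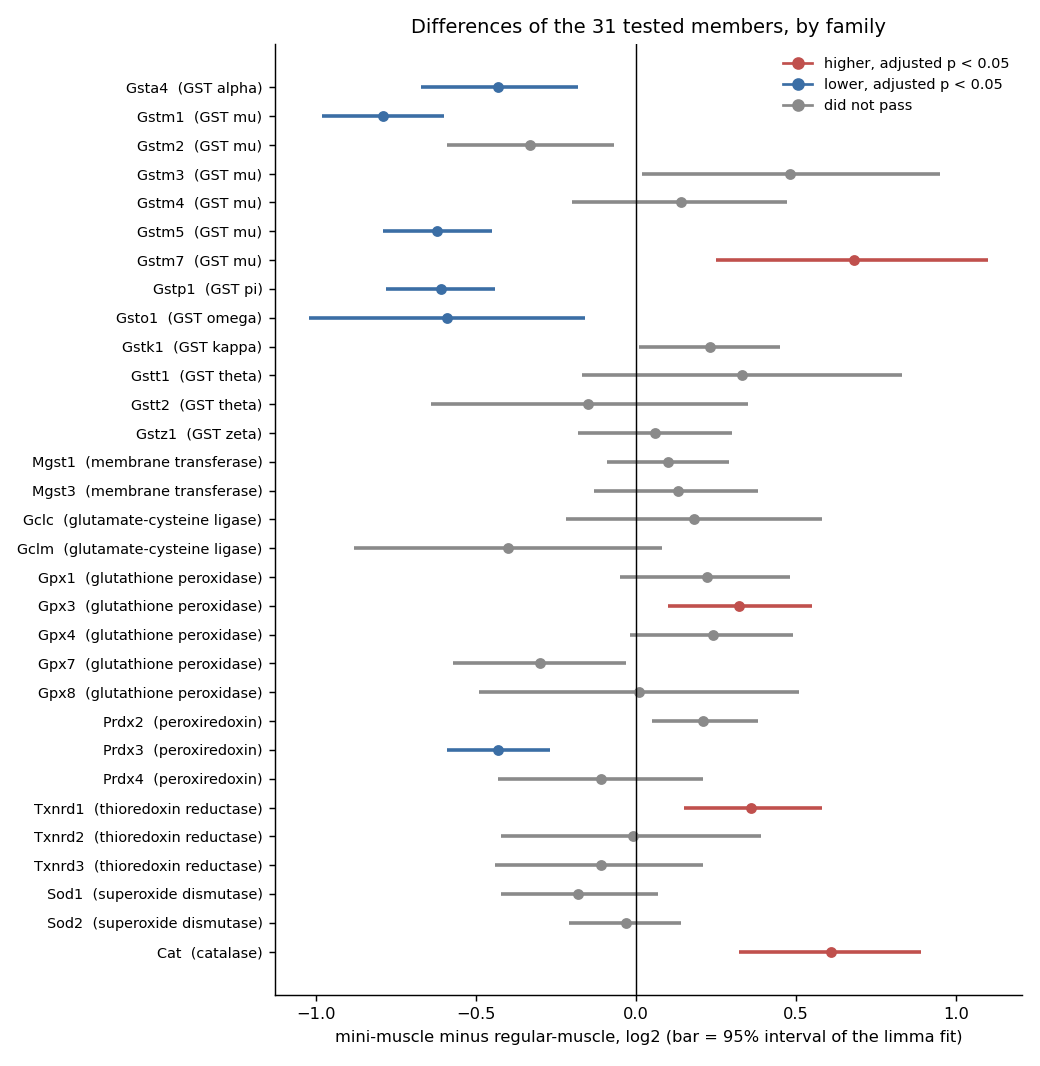
Difference between the groups on the log2 scale (x axis) for each of the 31 tested members (y axis), as a point with the 95% interval of the limma fit, n = 6 arrays per group. The 6 lower members lie between -0.79 and -0.43, the 4 higher members between 0.32 and 0.68, and 21 members did not pass.

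Mini-muscle and regular-muscle arrays were fully apart for 5 of the 31 tested members, against 13.0% of all genes tested. These were Gstm1, Gstm5, Gstp1 and Prdx3, which changed, and Gpx7, which did not pass the test. By family, 5 of the 6 lower members were transferases, of the alpha, mu, pi and omega classes. The transferases of all classes other than the membrane enzymes had 20 members, of which 13 were tested, with 5 lower and 1 higher, with a median difference of -0.15. Together 46.2% of the 13 were called, against 26.7% of all genes tested (11.8% lower and 14.9% higher). Among all genes with a mean above log2 12 the share was 45.8%, but not all of these transferases reach that level. No tested member of the theta, kappa, zeta or membrane classes, of glutamate-cysteine ligase or of the superoxide dismutases passed the test. Of the 6 tested selenoproteins among the members, which use selenocysteine, 2 were higher (Gpx3 and Txnrd1) and 0 lower, with a median of 0.23. That is 33.3% called, near the 26.7% of all genes tested.

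Gstm1, a mu-class transferase of electrophiles, had the smallest adjusted p among the members. On the log2 intensity scale, its mini-muscle arrays ran from 12.01 to 12.35 (median 12.29) and its regular-muscle arrays from 12.72 to 13.20 (median 13.10). Every mini-muscle array lay below every regular-muscle array, and the level was 1.73-fold lower (log2 difference -0.79, SE 0.09, adjusted p = 4.5e-06). Gstm5, another mu-class enzyme, ran from 13.02 to 13.26 (median 13.12) in mini-muscle and from 13.58 to 13.96 (median 13.69) in regular muscle. It too showed no overlap and was 1.54-fold lower (log2 difference -0.62, SE 0.08, adjusted p = 1.3e-05).

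Gstp1, the pi-class transferase, ran from 14.71 to 14.86 (median 14.77) in mini-muscle and from 15.18 to 15.69 (median 15.38) in regular muscle on the log2 intensity scale. The groups did not overlap, and Gstp1 was 1.53-fold lower (log2 difference -0.61, SE 0.08, adjusted p = 1.9e-05). Gsta4, the alpha-class enzyme that conjugates the lipid peroxidation product 4-hydroxynonenal, ran from 10.49 to 10.92 (median 10.55) in mini-muscle and from 10.74 to 11.34 (median 11.06) in regular muscle. Of the 6 mini-muscle arrays, 4 lay below every regular-muscle array, and Gsta4 was 1.35-fold lower (log2 difference -0.43, SE 0.12, adjusted p = 0.0098). Gstp1, Gsta4, Gstm1 and Gstm5 kept their call under each processing alternative and with each array left out in turn. For Gsta4 the adjusted p rounded to 0.05 with arrays centred on their medians. Gstp1, Gsta4 and Gstm5 have 1 probe set each, so averaging or exchanging probe sets left their own values unchanged. For Gstm1, 1 further probe set did not pass (adjusted p = 0.2).

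Gsto1, the omega-class enzyme with thiol transferase activity, also passed, but less firmly. Its log2 intensity ran from 11.08 to 12.20 (median 11.73) in mini-muscle and from 11.54 to 12.76 (median 12.52) in regular muscle, so the groups overlapped widely. The difference was -0.59 (SE 0.21, adjusted p = 0.04), and the other probe set of Gsto1 above the dim limit gave 0.09 (adjusted p = 0.56). The call ended with mini-muscle array 1, 2, 5 or 6 or regular-muscle array 2, 3, 5 or 6 left out (adjusted p = 0.059 to 0.097). It also ended with arrays centred on their medians (0.081), without the dim filter (0.065), with the mean of all probe sets (-0.25, adjusted p = 0.25) and without an intensity trend (0.081).

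**Figure D2:**
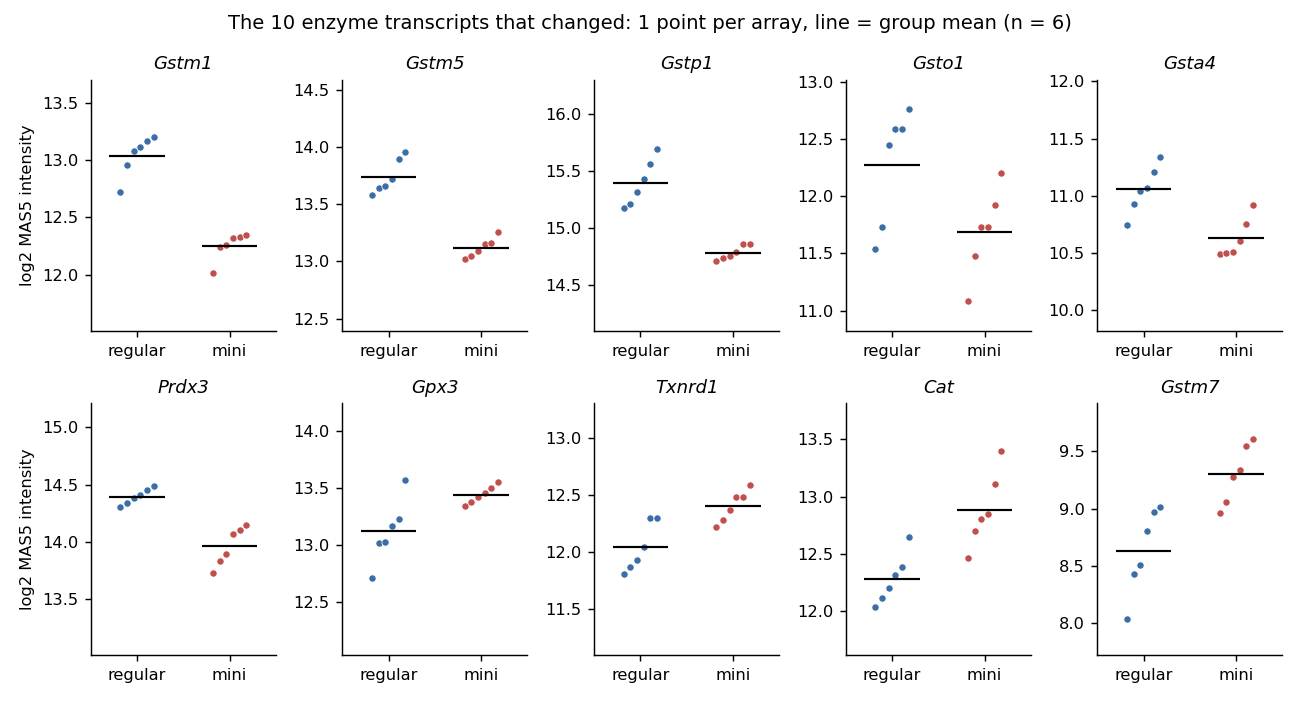
Log2 MAS5 intensity (y axis, a separate range in each panel that does not start at 0) of the 10 changed members in regular-muscle and mini-muscle arrays, 1 point per array, with a line at the mean of each group of 6. The groups are apart for Gstm1, Gstm5, Gstp1 and Prdx3 and overlap for the other members shown.

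Within the mu class, which is a gene cluster on chromosome 3, direction differed between neighbours. RefSeq orders the 7 genes as Gstm5, Gstm7, Gstm6, Gstm3, Gstm2, Gstm1 and Gstm4. Gstm7 ran from 8.96 to 9.61 (median 9.31) in mini-muscle and from 8.03 to 9.01 (median 8.65) in regular muscle on the log2 intensity scale. It was higher in mini-muscle, with 5 of 6 mini-muscle arrays above every regular-muscle array, whereas Gstm5 beside it was lower. The Gstm7 difference was 0.68 (SE 0.20, 1.60-fold, adjusted p = 0.018) and became 0.31 (adjusted p = 0.42) with the mean of all its probe sets, of which the second, below the dim limit, gave -0.05.

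Of the other tested mu genes, none passed. Gstm2 differed by -0.33 (95% interval -0.59 to -0.07, adjusted p = 0.055), and passed after quantile normalization (adjusted p = 0.048), among the brightest genes (0.043), and without mini-muscle array 2 (0.048) or regular-muscle array 4 (-0.44, adjusted p = 0.0024). Gstm3 differed by 0.48 (interval 0.02 to 0.95, adjusted p = 0.12) and passed without mini-muscle array 4 (0.62, adjusted p = 0.042). Gstm4 differed by 0.14 (interval -0.20 to 0.47). Gstm6 lay below the dim limit, at a mean log2 intensity of 6.02. The mu-class genes are close paralogues, and Gstm3 was read by a probe set of the s class, whose probes match transcripts of several genes. Signal shared between paralogues was not tested, so the level of each mu-class gene, and the contrast between Gstm5 and Gstm7, is uncertain to that extent.

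**Figure D3:**
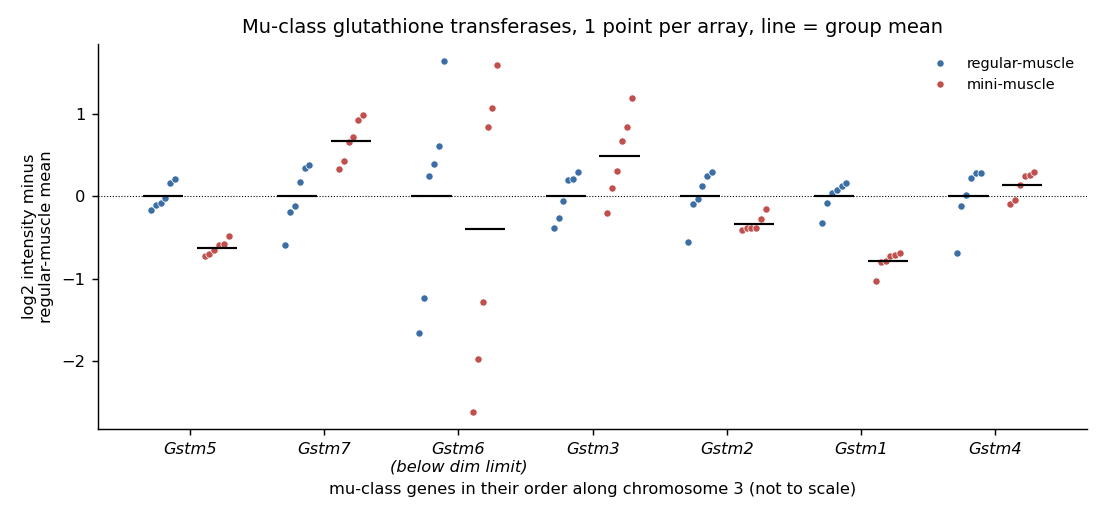
Log2 intensity of each array minus the regular-muscle mean of that gene (y axis) for the 7 mu-class genes in their order along chromosome 3 (x axis, not to scale), with a line at each group mean. Mini-muscle arrays lie below the regular-muscle arrays for Gstm5 and Gstm1 and mostly above them for Gstm7, and Gstm6, below the dim limit, scatters over the widest range.

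The remaining transferase classes held no further change among their tested members. Gstk1, the kappa-class enzyme of mitochondria and peroxisomes, ran from 12.25 to 12.64 (median 12.40) in mini-muscle and from 11.98 to 12.53 (median 12.11) in regular muscle on the log2 scale. Its difference was 0.23 (95% interval 0.01 to 0.45, adjusted p = 0.12), and it passed without regular-muscle array 4 (0.29, adjusted p = 0.035). Gstt1, of the theta class, ran from 9.63 to 10.61 (median 10.10) and from 8.58 to 10.14 (median 10.01), with a difference of 0.33 (interval -0.17 to 0.83, adjusted p = 0.34). Its widely spaced arrays left the interval reaching beyond 1.5-fold. Gstt2 differed by -0.15 (interval -0.64 to 0.35).

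Gstz1, which also isomerises maleylacetoacetate in tyrosine breakdown, ran from 10.42 to 10.90 (median 10.71) in mini-muscle and from 10.43 to 10.84 (median 10.64) in regular muscle. The groups lay over each other, with a difference of 0.06 (95% interval -0.18 to 0.30, adjusted p = 0.77). The membrane transferase Mgst3 ran from 14.70 to 15.49 (median 14.86) and from 14.41 to 15.08 (median 14.90), with a difference of 0.13 (interval -0.13 to 0.38, adjusted p = 0.48). Mgst1 differed by 0.10 (interval -0.09 to 0.29). The intervals of Gstz1, Mgst1 and Mgst3 lay within 1.5-fold in either direction, as did those of 16 of the 21 members that did not pass.

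Neither subunit of the enzyme that starts glutathione synthesis passed the test. Gclc, the catalytic subunit of glutamate-cysteine ligase, ran from 8.84 to 9.72 (median 9.44) in mini-muscle and from 8.87 to 9.76 (median 9.14) in regular muscle. Its log2 difference was 0.18 (95% interval -0.22 to 0.58, adjusted p = 0.54), and in this probe set, of the s class, the groups shared nearly the same range. The other probe set of Gclc above the dim limit gave 0.47 (adjusted p = 0.088), which did not pass either. Gclm, the modifier subunit, differed by -0.40 (interval -0.88 to 0.08, adjusted p = 0.22).

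Among the glutathione peroxidases, Gpx3 passed and the other 4 tested did not, and the family median was 0.22. Gpx3, the selenium-containing peroxidase that is secreted into plasma, ran from 13.34 to 13.55 (median 13.44) in mini-muscle and from 12.71 to 13.57 (median 13.10) in regular muscle. The mini-muscle arrays were tightly grouped and 1 regular-muscle array lay above all of them. Gpx3 was 1.25-fold higher (log2 difference 0.32, SE 0.11, adjusted p = 0.032). The call ended without mini-muscle array 2, 5 or 6 or regular-muscle array 1, 2 or 3 (differences of 0.24 to 0.32, adjusted p = 0.055 to 0.074). It also ended with arrays centred on their medians (0.1), without the dim filter (0.051) and without an intensity trend (0.07). With the mean of all probe sets the call ended too (0.05), although Gpx3 has 1 probe set and its own values stayed the same.

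Gpx4, which reduces lipid hydroperoxides in membranes, ran from 14.54 to 15.01 (median 14.73) in mini-muscle and from 14.07 to 14.89 (median 14.51) in regular muscle. Its difference of 0.24 (95% interval -0.02 to 0.49, adjusted p = 0.16) did not pass, but another of its probe sets gave 0.43 (adjusted p = 0.003). Gpx4 passed with the mean of its probe sets (0.34, adjusted p = 0.031) and without probe sets of the x class (0.43, adjusted p = 0.0022). Gpx1, the most widespread peroxidase of hydrogen peroxide, ran from 12.62 to 13.01 (median 12.90) and from 12.35 to 13.19 (median 12.48). Its difference was 0.22 (interval -0.05 to 0.48, adjusted p = 0.23), and it passed without regular-muscle array 3 (0.33, adjusted p = 0.029).

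Gpx7 and Gpx8 are peroxidases of the endoplasmic reticulum. Gpx7 ran from 9.20 to 9.55 (median 9.45) in mini-muscle and from 9.56 to 9.99 (median 9.71) in regular muscle. The groups did not overlap, yet the difference of -0.30 (95% interval -0.57 to -0.03, adjusted p = 0.1) did not pass; without an intensity trend it did (adjusted p = 0.039). Gpx8 differed by 0.01 (interval -0.49 to 0.51).

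Of the 3 tested peroxiredoxins and the 3 tested thioredoxin reductases, 1 of each passed, Prdx3 as lower and Txnrd1 as higher. Prdx3, the mitochondrial peroxiredoxin, ran from 13.73 to 14.15 (median 13.98) in mini-muscle and from 14.30 to 14.49 (median 14.39) in regular muscle. No array of a group reached the other group, and Prdx3 was 1.35-fold lower (log2 difference -0.43, SE 0.08, adjusted p = 3.9e-04), a call that held under each alternative and with each array left out. Prdx2, a cytosolic peroxiredoxin, ran from 13.93 to 14.27 (median 14.02) and from 13.75 to 14.09 (median 13.84). Its difference was 0.21 (95% interval 0.05 to 0.38, adjusted p = 0.053), and it passed after quantile normalization (0.28, adjusted p = 0.0052), among the brightest genes (0.043), and without mini-muscle array 5 (0.041) or regular-muscle array 3 (0.02). Prdx4, of the endoplasmic reticulum, differed by -0.11 (interval -0.43 to 0.21). For Prdx1, 5 probe sets that name it together with another gene were not used. Only Prdx2, Prdx3 and Prdx4 had a probe set assigned to them alone. The counts of this family therefore leave out Prdx1, Prdx5 and Prdx6.

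Txnrd1, the cytosolic thioredoxin reductase, ran from 12.22 to 12.59 (median 12.43) in mini-muscle and from 11.81 to 12.30 (median 11.99) in regular muscle. It was 1.28-fold higher (log2 difference 0.36, SE 0.10, adjusted p = 0.013), with 4 of 6 mini-muscle arrays above every regular-muscle array. Its other probe set above the dim limit gave -0.05 (adjusted p = 0.92), and with the mean of all its probe sets the difference was 0.43 (adjusted p = 0.14). Txnrd2, the mitochondrial reductase, differed by -0.01 (95% interval -0.42 to 0.39) and Txnrd3 by -0.11 (interval -0.44 to 0.21).

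Catalase was higher while the superoxide dismutases did not pass. Cat, the peroxisomal enzyme that breaks hydrogen peroxide down to water and oxygen, ran from 12.46 to 13.40 (median 12.82) in mini-muscle and from 12.03 to 12.65 (median 12.25) in regular muscle. Of the 6 mini-muscle arrays, 5 lay above every regular-muscle array, and Cat was 1.52-fold higher (log2 difference 0.61, SE 0.14, adjusted p = 0.0026). This call held under each alternative and with each array left out, and the other probe set of Cat above the dim limit gave 0.44 (adjusted p = 0.022). Sod2, the mitochondrial dismutase, ran from 13.90 to 14.37 (median 14.24) and from 14.09 to 14.35 (median 14.22), with a difference of -0.03 (95% interval -0.21 to 0.14, adjusted p = 0.82). Sod1, the cytosolic copper and zinc enzyme, differed by -0.18 (interval -0.42 to 0.07, adjusted p = 0.3).

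Several probe sets of a gene did not always give the same difference. Of the 14 members with at least 2 probe sets above the dim limit, 7 had differences of 1 sign in all of them. Among the changed members, Gstm1 and Cat agreed in sign across their probe sets, Gsto1 and Txnrd1 did not, and the other 6 were each read by 1 probe set above the limit. The further probe sets of Gstm1 gave -0.76 (adjusted p = 3.3e-05) and -0.71 (adjusted p = 0.2). For Sod2 the other probe sets gave 0.01, 0.42 and 0.66, the last with an adjusted p of 0.02 over all probe sets, of which 24.7% were called. Of the 10 changed members, Gstp1 and Txnrd1 were read by probe sets of the a class, whose probes match several transcripts of a gene, and Gstm1 and Gsto1 by the x class, in which some probes also match other sequences. The levels of Gstm1 and Gsto1 are uncertain for that reason, and the level of Gstp1 because it has a near-identical copy in the genome.

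**Figure D4:**
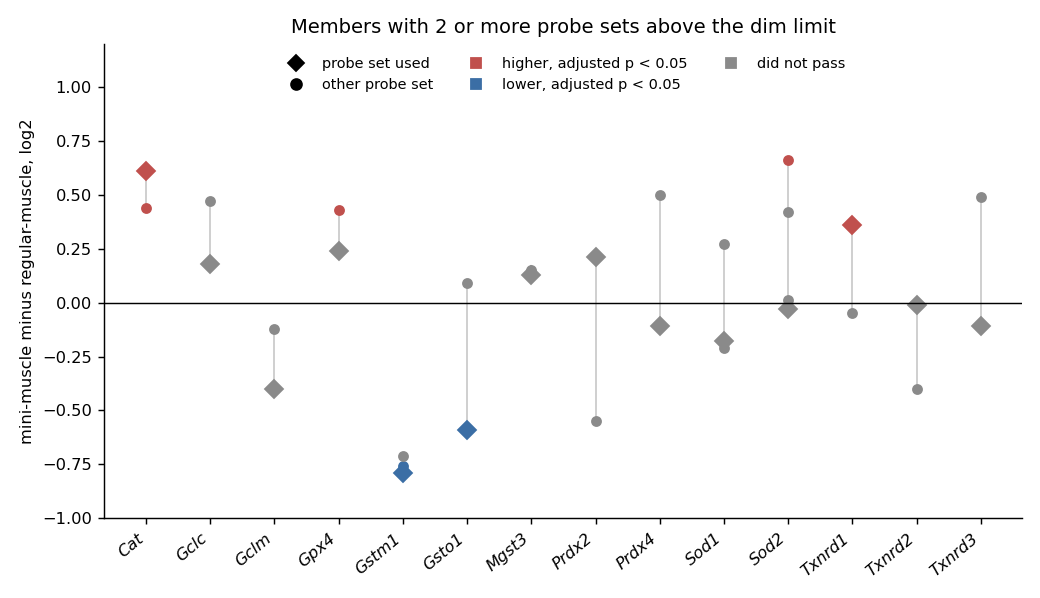
Difference between the groups on the log2 scale (y axis) for every probe set above the dim limit of the 14 members (x axis) that have at least 2 such probe sets, n = 6 arrays per group, with a diamond for the probe set used. The probe sets of Gstm1 and Cat lie on 1 side of 0, and those of Gsto1, Txnrd1 and Sod2 lie on both sides.

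The 12 members below the dim limit had mean log2 intensities of 5.63 to 8.40, and 11 of them varied between arrays of a group by an SD over 1. They were the transferases Gsta2 (6.81), Gsta3 (5.63), Gstm6 (6.02), Gsto2 (5.77), Gstp3 (8.14), Gstt3 (7.87) and Gstt4 (5.99), the membrane enzyme Mgst2 (8.14), the peroxidases Gpx2 (5.81), Gpx5 (6.09) and Gpx6 (6.30), and the extracellular dismutase Sod3 (8.40). Gstt3, of the theta class, ran from 7.23 to 9.59 (median 9.14) in mini-muscle and from 5.01 to 8.64 (median 7.26) in regular muscle. Of its 6 mini-muscle arrays, 5 lay above every regular-muscle array. With no dim filter, which takes in all 18194 genes and called 12.1% of them, Gstt3 was the only 1 of the 12 called (difference 2.03, adjusted p = 0.021 over all genes).

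The other genes of these pathways were read from 7 lists of 128 genes, written with earlier results of these data known, of which 94 were tested, 19 were higher and 22 lower. These 41 calls among 94 genes stand beside 26.7% called over all genes tested, 14.9% higher and 11.8% lower. Of all genes above log2 12, 45.8% were called in either direction, but the lists also hold genes below that level. In glutathione synthesis, recycling and thiol partners, 3 of 15 tested genes were higher and 4 lower, with a median of -0.29. Gss, which completes glutathione, was higher by 0.64 (adjusted p = 0.0097), and Gsr, which reduces oxidised glutathione, by 0.46 (adjusted p = 0.013). The other probe set of Gss gave 0.28 (adjusted p = 0.45). Oplah, which returns glutamate from 5-oxoproline, was higher by 0.87 (adjusted p = 1.7e-05). The lower genes included Chac1 and Chac2, which degrade glutathione (-1.47, adjusted p = 2.2e-05, and -0.59, adjusted p = 0.0012), and the mitochondrial glutaredoxin Glrx2 (-0.35, adjusted p = 0.0021; adjusted p = 0.07 with arrays centred on their medians). The other Glrx2 probe sets gave -0.35 (adjusted p = 0.0067) and -0.09 (adjusted p = 0.64).

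Among thioredoxin partners and methionine sulfoxide reductases, 4 of 15 were higher and 2 lower (median 0.01). Nxn, nucleoredoxin, was higher by 0.78 (adjusted p = 1.0e-04) and Sesn3, a sestrin, by 0.91 (adjusted p = 1.3e-04), while Msrb3, a methionine sulfoxide reductase, fell by 1.07 (adjusted p = 1.0e-07). The other probe set of Msrb3 gave -0.46 (adjusted p = 0.16). Srxn1, which restores overoxidised peroxiredoxins, was higher by 0.48 (adjusted p = 0.023), but not with the mean of its probe sets (0.34, adjusted p = 0.18) or without mini-muscle array 4, 5 or 6 or regular-muscle array 2 (adjusted p = 0.051 to 0.062). Its other probe sets gave 0.68 (adjusted p = 0.051), 0.54 (adjusted p = 0.091) and -0.33 (adjusted p = 0.56). Txn1, cytosolic thioredoxin, was lower by a log2 difference of -0.26 (adjusted p = 0.026), and its other probe set gave 0.34 (adjusted p = 0.62). That call ended with arrays centred on their medians (adjusted p = 0.23), without an intensity trend (0.055), and without mini-muscle array 2, 5 or 6 or regular-muscle array 3 (adjusted p = 0.05 to 0.066).

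In the NADPH supply list, 5 of 14 were higher and 3 lower (median 0.04). The mitochondrial enzymes Idh2, Nnt and Me3 were higher, by 0.94 (adjusted p = 2.6e-07), 0.74 (adjusted p = 9.9e-06) and 0.61 (adjusted p = 2.0e-04), and the cytosolic malic enzyme Me1 fell by 1.24 (adjusted p = 2.2e-07). With the mean of all probe sets, Idh2 gave 0.21 (adjusted p = 0.36) and Nnt 0.09 (adjusted p = 0.82). In the list of Nrf2 and its other targets, 6 of 20 were higher and 4 lower (median 0.09). Nfe2l2, Nrf2 itself, differed by 0.08 (adjusted p = 0.54), its inhibitor Keap1 by 0.11 (adjusted p = 0.41) and the common target Nqo1 by 0.13 (adjusted p = 0.55), and none of them passed. Hmox1 lay below the dim limit, at a mean log2 intensity of 8.23. Those that passed included Aox1, an aldehyde oxidase (1.26, adjusted p = 2.9e-07), the related factor Nfe2l1 (0.65, adjusted p = 1.4e-04), Cul3, the ubiquitin ligase scaffold that pairs with Keap1 (-0.45, adjusted p = 1.8e-04), and Park7, DJ-1 (-0.80, adjusted p = 8.3e-08).

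Selenium-related genes outside the members were lower or did not pass. In metal and selenium supply, 0 of 11 were higher and 2 lower (median -0.06): Sephs2, which makes selenophosphate, by -0.88 (adjusted p = 5.7e-05), and its paralogue Sephs1 by -0.34 (adjusted p = 0.049). The other Sephs2 probe sets gave -0.48 (adjusted p = 0.0015) and -0.13 (adjusted p = 0.53), and those of Sephs1 gave -0.69 (adjusted p = 0.19) and -0.21 (adjusted p = 0.74). The Sephs1 call ended with each array left out except mini-muscle arrays 3 and 6 and regular-muscle array 4 (adjusted p = 0.054 to 0.11). In the list of other selenoproteins, 0 of 10 were higher and 5 lower (median -0.26). The lower genes included Selenow and Selenok (both -0.48, adjusted p = 5.7e-05 and 2.7e-04), Selenot (-0.36, adjusted p = 3.7e-04) and Selenof (-0.37, adjusted p = 5.4e-04). The selenoproteins Sephs2, Selenop and Msrb1 stand in other lists and are not in that count. Selenop (-0.17, adjusted p = 0.17) and Msrb1 (-0.17, adjusted p = 0.43) did not pass. With the mean of all probe sets, Selenot gave -0.08 (adjusted p = 0.92) and the Selenof call also ended. Among sources of superoxide and hydrogen peroxide, 1 of 9 was higher and 2 lower (median -0.07): Smox, spermine oxidase (-2.66, adjusted p = 1.5e-09), and Xdh, xanthine dehydrogenase (-0.85, adjusted p = 0.0015), were lower. Maob, a monoamine oxidase of the mitochondrial outer membrane, was higher by 0.44 (adjusted p = 0.04), but not without mini-muscle array 1, 4 or 5 or regular-muscle array 2, 3 or 4 (adjusted p = 0.055 to 0.095).

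**Figure D5:**
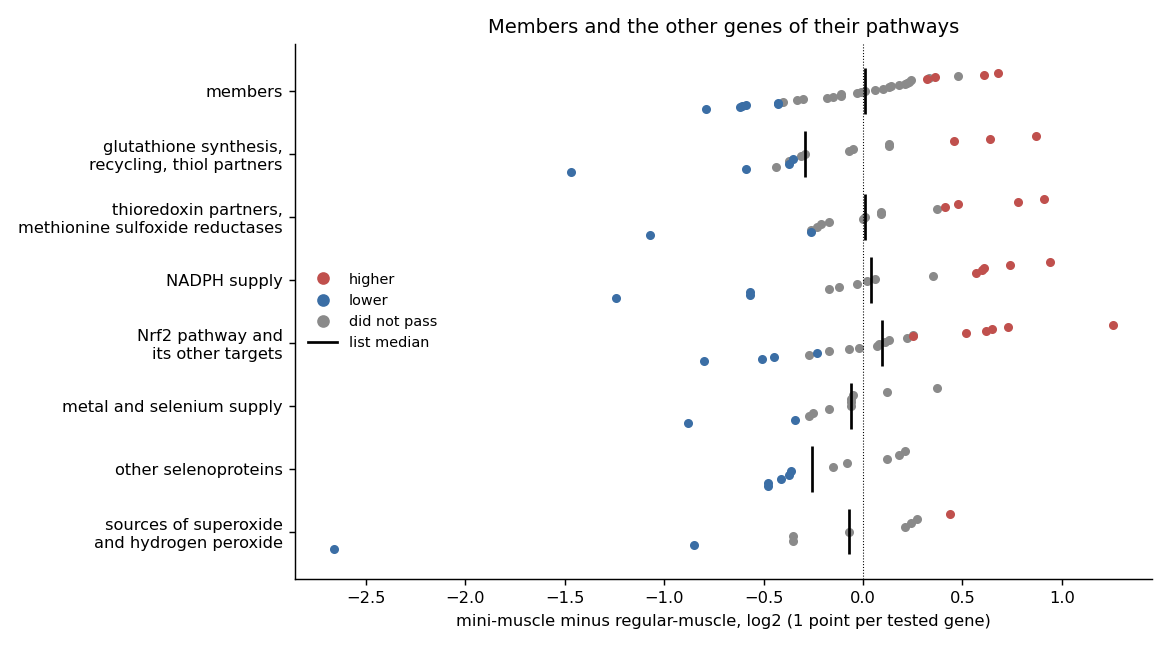
Difference between the groups on the log2 scale (x axis), 1 point per tested gene, for the members and for the 7 lists of other pathway genes (y axis), with a vertical bar at the median of each. Higher and lower genes occur among the members and in 5 of the 7 lists, and the metal and selenium supply list and the other selenoproteins hold lower genes only.

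Markers of muscle fibre types and of other cells differed between the groups. Of 9 fast-fibre markers above the dim limit, 1 was higher and 5 lower, and their summed intensity ran from 1070000 to 1270000 in mini-muscle and from 1320000 to 1630000 in regular muscle. All 7 slow-fibre markers above the limit, of 8, were higher (276000 to 389000 against 154000 to 219000). Fibroblast markers were lower in 6 of 9 (27400 to 47200 against 49100 to 74800) and macrophage markers in 4 of the 5 of 10 above the limit (5190 to 6720 against 6430 to 10300). Of smooth muscle and pericyte markers, 2 of 7 were higher (104000 to 122000 against 64900 to 81600). That list includes Des (desmin), which muscle fibres also make, and a sum of linear intensities follows its brightest genes. The sum is therefore not a measure of these cells alone. Endothelial markers gave 1 higher of 8 (9710 to 13800 against 8240 to 12600), adipocyte markers 1 higher and 1 lower of 4 (34300 to 50900 against 30400 to 42800), and Schwann cell markers 0 of 3 (7220 to 20200 against 7580 to 20000). The 4 red cell markers with a probe set lay below the dim limit, as did 4 of 5 hepatocyte markers, of which the remaining 1 was lower. The part of these cell types in the results on the members was not tested, and in bulk muscle fewer cells of a type and less RNA per cell cannot be told apart.

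The arrays shared a scale that MAS5 sets. With 2% of probe sets trimmed at either end, every array had a mean intensity of 800.0. MAS5 scales each array to a common target, so that equality does not show that the arrays were alike. Array medians ran from 211.9 to 275.2. The median log2 intensity differed by -0.011 between the groups (two-sided exact permutation test over 924 assignments, p = 0.885). Pearson correlations across single-gene probe sets were 0.867 to 0.892 within groups and 0.853 to 0.881 between them, and 0 pairs of arrays were identical.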

How the data were processed

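Gastrocnemius RNA of 12 mice was measured on Affymetrix arrays, 1 animal per array. The values the authors deposited are linear MAS5 intensities, per the submitters' processing notes; its version, settings and detection calls are not stated in those notes or the labels. MAS5 summarises each probe set on each array separately and scales each array to a common target, so it fixes the overall level and not the shape of the distribution. The labels give each array's group and line, and replicate numbers are only names. Arrays have no sequencing depth; their number, 6 per group, limits precision.

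Of 45101 probe sets, 34958 had 1 gene in the platform annotation, 932 had several and 9211 had none. The 43 members were read by 75 probe sets (19 members by more than 1), and 6 probe sets of several genes that match the rule were left out. All 43 were found by gene identifier in RefSeq (GRCm38.p6), which gave gene order and promoters. Intensities were taken to log2 with no offset, and 1 probe set per gene (the highest mean) was used. Genes with a mean log2 under 8.56, the median over genes, were not tested, which left 9097. Groups were compared two-sided with limma (3.58.1, R 4.3.3; lmFit, then eBayes with trend) and Benjamini-Hochberg adjustment over all 9097 genes. All adjusted p-values are from this fit unless a setting is named; those of further probe sets are adjusted over the 14388 probe sets above the limit. On simulated data (9097 genes, 200 changed, independent normal values), 64% of 1.5-fold and 82% of 2-fold changes were called. There were 0 sign errors and 8 unchanged genes among 154 calls. In the data 2426 of 9097 genes were called, so a call needed a smaller unadjusted p in the simulation. The simulated shares are therefore not the power of this comparison.

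Every member is named. Members that changed and the brightest of each family are given with their lowest, median and highest arrays, and so are some others whose values decide a sentence. From each pathway list up to 4 called genes with the smallest adjusted p are named, with Nfe2l2, Keap1, Nqo1, Hmox1, Gsr, Gss, Srxn1 and Txn1 in any case. The members, lists and rules were chosen with earlier results of these data known. Alternatives were quantile normalization, centring on array medians, no dim filter, only genes with a mean log2 over 9.76, an offset of 64, the mean of all probe sets, no intensity trend, each array left out, the other probe sets of a member and, chosen after seeing that the probe sets of Gsto1 disagree, no probe sets of the x class.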

Additional observations from a re-analysis of the deposited data

Results flagged for a closer look

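In 7 of the 86 sets of 6 arrays examined (43 members in each group), the highest or lowest array stood apart from the other 5; chance gives about 1 in 20. In the tested members, Gclm was at log2 7.73 in mini-muscle array 2 (nearest array 8.44) and at 9.51 in regular-muscle array 4 (nearest 8.90). Gpx8 was at 8.18 in mini-muscle array 5 (nearest 9.35). Gstm1 was at 12.01 in mini-muscle array 6 (nearest 12.24), and without that array its difference remained called. Gstt1 was at 8.58 in regular-muscle array 4 (nearest 9.68). Below the dim limit, mini-muscle array 1 was low for Gstp3, at 4.89 (nearest 7.99), and for Gstt3, at 7.23 (nearest 8.81).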

How the results depend on the processing

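The calls of Gstm1, Gstm5, Gstp1, Gsta4, Prdx3 and Cat held in every alternative except 1 further probe set of Gstm1. Gstm5, Gstp1, Gsta4 and Prdx3 have 1 probe set each, so averaging or exchanging probe sets left their own values unchanged. With array medians aligned, the adjusted p of Gsta4 rounded to 0.05. Of 31 tested members, 12 changed after quantile normalization (26.3% of all genes called), 8 with array medians aligned (18.0%) and 10 with an offset of 64 (26.9%). Also of 31, 9 changed without an intensity trend (24.8%) and 10 without probe sets of the x class (26.9%). Elsewhere the number of tested members differed. With no dim filter 9 of 43 changed (12.1%), and among the brightest genes 11 of 21 (35.3%). By the average over a gene's probe sets, 8 of 33 changed (17.0%). With each array left out in turn, 8 to 12 of 31 members changed, of which 3 to 5 were higher and 5 to 7 lower. Over all genes, averaging probe sets gave 1543 calls against 2426. Of 628 alternative values of single members, 557 kept direction and side of the threshold, 25 lost the call, 15 gained it and 31 changed sign.

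Sign changes of tested members and named pathway genes, in other settings and in other probe sets above the dim limit, were as follows, and the cause was not tested. After quantile normalization Gpx8 was -0.02 and Sod2 0.04. Averaged over probe sets, Mgst1 was -0.09, Prdx2 -0.17, Sod2 0.26, Txnrd3 0.17, Nfe2l2 -0.31 and Txn1 0.04. Without probe sets of the x class Gsto1 was 0.09. In other probe sets Gsto1 was 0.09, Prdx2 -0.55, Prdx4 0.50, Sod1 0.27, Sod2 0.01, 0.42 and 0.66, Txnrd1 -0.05, Txnrd3 0.49, Txn1 0.34 and Srxn1 -0.33; below that limit, the second probe set of Gstm7 gave -0.05. With each array left out in turn, Gpx8 ran from -0.09 to 0.23, Gstm4 from -0.00 to 0.19, Sod2 from -0.07 to 0.03 and Txnrd2 from -0.10 to 0.10. Among pathway list genes, averaging probe sets gave 28 calls against 41 (13 higher against 19, 15 lower against 22), and aligning array medians gave 31 (16 higher, 15 lower). With each array left out there were 34 to 43 (14 to 20 higher, 17 to 25 lower). The narrower promoter motif gave 17.9% of member genes against 46.2%. No paired analysis was possible because the labels give animal identifiers and no replicate numbers shared between the groups. For dim probe sets the signal over background limits what can be seen, and the detection calls that would mark them were not used here.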
